A study of Drosophila melanogaster with 2 samples.

Results

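The regions described here are the peaks that lay just below the authors' reproducibility threshold in a chromatin immunoprecipitation and sequencing (ChIP-seq) map of the fork head domain protein fd102C. They were selected on measured values: all 30000 peaks called on the pooled replicates were put in order of the authors' peak signal, and the band of ranks directly under the thresholded peaks was taken, with as many peaks as the thresholded list holds. The members make up 6.77% of the pooled peaks. The thresholded list holds exactly the pooled peaks of highest signal, and none of the members is in it. Whole Drosophila melanogaster embryos of mixed sex were used, 2 to 6 h old according to the source description, from a line with a transgene that places GFP at the C-terminal end of fd102C. The 2 biological replicates form 1 group, so no condition is contrasted, and the control was not analysed here. Signal therefore comes from a mixture of all embryonic cell types, and a peak in a small tissue cannot be told from a weak peak in many tissues. No read counts are given, which leaves depth unknown, and the scale of the signal is not stated.

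Fork head domain proteins hold DNA through a winged-helix fold and favour an A- and T-rich core whose usual form is GTAAACA. Many of them act in embryonic patterning and organ formation, and several can bind sites in compact chromatin. A threshold on reproducibility divides a ranked list at a point where replicates stop ranking peaks alike, so peaks just under it can hold both bound sites and background. The comparisons below set the members against the thresholded peaks above them and against the band of equal size directly below, called the next peaks. In all tests the units are peaks, which are not replicates of embryos.

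The rule fixed the members' signal, which ran from 88.8 to 125.7 with a median of 102.3. On either side of the upper edge the values were continuous: the last thresholded peak had a signal of 125.667 and the first member a signal of 125.658. At the lower edge the last member had 88.788 and the first peak below it had 88.775. The median was 181.3 in the thresholded peaks and 80.5 in the next peaks. All but 1 of the members were 360 bp wide, the usual width in these lists, as were 81.1% of the thresholded peaks. Repeat-masked bases made up more than 50% of 69 members (3.40%), 60 thresholded peaks and 58 of the next peaks.

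The windows below show what such a peak looks like in sequence. They are the 8 highest ranked members that met 3 conditions: a fork head consensus within 50 bp of the summit, a printed window outside annotated untranslated regions, and a position on an arm from which sequence is shown here. Each window reaches 50 bp to either side of the summit and is read from the plus strand of the Release 6 genome (dm6), and the capitals mark every match to the consensus on either strand.
Srp14, chr3R:20579999-20580099: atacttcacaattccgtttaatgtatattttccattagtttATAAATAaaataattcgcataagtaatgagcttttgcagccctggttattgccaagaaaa
Toll-6, chr3L:15331617-15331717: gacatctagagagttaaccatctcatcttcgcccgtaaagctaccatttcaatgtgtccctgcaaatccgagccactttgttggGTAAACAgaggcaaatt
CG14891, chr3R:16538158-16538258: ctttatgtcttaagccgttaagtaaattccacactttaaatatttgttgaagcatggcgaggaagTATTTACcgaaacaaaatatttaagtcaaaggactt
Bsg, chr2L:8097589-8097689: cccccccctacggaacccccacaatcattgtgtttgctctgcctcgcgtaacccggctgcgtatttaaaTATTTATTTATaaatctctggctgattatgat
Tom, chr3L:14958645-14958745: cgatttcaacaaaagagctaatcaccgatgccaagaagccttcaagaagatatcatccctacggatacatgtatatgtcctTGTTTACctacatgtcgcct
CG5910, chr3L:20444896-20444996: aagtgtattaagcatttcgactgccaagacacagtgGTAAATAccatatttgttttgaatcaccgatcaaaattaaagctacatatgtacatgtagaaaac
CG31751, chr2L:18677502-18677602: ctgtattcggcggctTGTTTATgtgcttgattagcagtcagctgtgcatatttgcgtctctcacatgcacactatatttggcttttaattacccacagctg
dlp, chr3L:14635230-14635330: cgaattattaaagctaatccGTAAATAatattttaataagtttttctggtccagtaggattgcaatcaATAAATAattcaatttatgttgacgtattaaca

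These 8 windows differ in setting as well as in sequence. The Srp14 window, beside the gene for a subunit of the signal recognition particle, lay 66 bp from the transcription start site (TSS). It ranked 1896 in replicate 1 and 2937 in replicate 2. The windows in Bsg, which encodes the membrane glycoprotein Basigin, and in dlp, which encodes a glypican that binds Wnt and Hedgehog proteins, lay in introns and each held 2 matches. The dlp peak ranked 4463 in replicate 1 and had no summit within 100 bp in replicate 2. The window nearest to Tom, a Bearded family gene that inhibits Notch signalling, lay 10649 bp from its TSS and had close ranks in both replicates, 1912 and 1897.

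The second set of windows shows a motif that was searched beside the fork head consensus. M1BP is a zinc finger protein of housekeeping promoters whose motif is written GGTCACACT. The 5 windows, chosen after their values had been seen, are those of the highest ranked members with this motif under the same conditions. Each has 10 bases on either side and is read on the strand that carries the motif, which is in capitals.
Sar1, chr3R:22356683-22356711, plus strand: ttcgcttattGGTCACACTggggcttatg
CG11247, chr3L:21728641-21728669, plus strand: accgatagacGGTCACACTgggactctct
Arc42, chr3R:19877753-19877781, plus strand: gacctcctctGGTCACACTgtccattttt
Wdr62, chr2L:1884588-1884616, plus strand: tcacccctctGGTCACACTgaacacataa
wls, chr3L:11169609-11169637, minus strand: atccgcgcaaGGTCACACTgctttgttga

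All 5 peaks of this set had their summit within 100 bp of a protein-coding TSS, from 19 bp at CG11247 to 100 bp at Wdr62. In all 5 the base after the motif was G, so that each also held ACACTG, the 6-mer described below. Sar1 encodes a GTPase of vesicle budding, and wls encodes the Wnt secretion factor Wntless.

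A further set, also chosen after the values had been seen, shows the palindromic motif of DREF, a factor of replication and growth gene promoters. Its 8 letters TATCGATA hold the 5 letters CGATA used for BEAF-32, an insulator protein. The motif is in capitals, again with 10 bases on either side and on the plus strand.
CG3740, chrX:1669299-1669326: tcgacgtttaTATCGATAtatggcctta
SelT, chr2L:5010860-5010887: cagtctttacTATCGATAtttttttgac
neur, chr3R:9035528-9035555: gtttttcgctTATCGATAtccactgtac
CG4558, chrX:6849747-6849774: atccctagttTATCGATAacaacgctat
RpS14a, chrX:7933668-7933695: acacactcccTATCGATAagctatcgcc

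Of these 5, the peak in neur was the exception in position. It lay in an intron, 1756 bp from the nearest protein-coding TSS, while the other 4 lay from 1 to 96 bp from one. neur encodes an E3 ubiquitin ligase of Notch signalling and RpS14a a protein of the small ribosomal subunit.

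The fork head consensus was found more often at members than at flanking positions. A peak was counted when its summit had, no more than 100 bp away and on either strand, ATAAACA or ATAAATA or GTAAACA or GTAAATA. A match was present at 791 members and absent from 1240, a share of 38.9% (95% Wilson interval 36.8 to 41.1%), and in 25.6% of windows of the same length 1000 bp away on the side of lower coordinates. The difference passed the exact McNemar test over 21 motifs (adjusted p = 4.30e-18). All 30000 pooled peaks held it at 30.4%, and the last band of equal size at 26.5%.

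Each of the 4 forms of the consensus was more frequent at members than in flanks. ATAAATA was in 19.5% of members and 11.8% of flanks. GTAAATA was in 10.1% and 5.47%, ATAAACA in 11.1% and 8.03%, and GTAAACA in 8.57% and 4.68%. The largest adjusted p of the 4 exact McNemar tests was 0.000941, for ATAAACA. At least 2 matches were present in 13.7% of members, 13.7% of thresholded peaks and 8.91% of the next peaks.

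The members' windows held less G and C than their flanks, with a median of 39.3% against 42.8%, and the consensus is rich in A and T. Its share was therefore also read at equal base composition. Among the 691 members whose window and flank differed by at most 5 percentage points of G and C, the consensus was in 40.5% of members and 29.2% of flanks (adjusted p = 0.000171, exact McNemar test over 21 motifs). The share was higher in members than in flanks in each of 6 bands of G and C content, from 58.9% against 51.6% under 30% to 14.0% against 6.86% at 50% or more. Among the 842 members with at least as much G and C as their own flank, a subset whose flanks are richer in A and T by construction, the order was the opposite, 30.6% against 38.8%.

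Above the threshold the consensus was somewhat more frequent, but over 21 motifs this did not pass. It was in 43.1% of thresholded peaks against 38.9% of members, with adjusted p = 0.0624 by Fisher's exact test. Of the 4 forms, GTAAATA was lower in members, at 10.1% against 13.1% (adjusted p = 0.0112, Fisher's exact test). The difference of the whole consensus passed within 50 bp of the summit, where the difference was -4.87 points (adjusted p = 0.00901, Fisher's exact test), and within 250 bp the difference was 0 (adjusted p = 1). Against the top peaks of replicate 1's own list it passed as well, at -9.16 points (adjusted p = 6.30e-08, Fisher's exact test). Against those of replicate 2's it did not, at -2.56 points (adjusted p = 0.57, Fisher's exact test). The next peaks held it at 33.5%, lower than members (adjusted p = 0.00782, Fisher's exact test). By the same exact test that call was lost within 50 bp of the summit (adjusted p = 0.157), with GTAAACA alone (adjusted p = 0.58), in replicate 1's own list (adjusted p = 0.12) and among peaks within 1 kb of a TSS (adjusted p = 0.686). Among peaks over 1 kb from a TSS the members were 9.92 points higher than the next peaks (adjusted p = 0.00022, Fisher's exact test).

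Sites were densest at the summit itself. In the 50-bp bin centred on the summit there were 17.0 sites per 100 members, against 22.5 per 100 thresholded peaks, 13.5 per 100 of the next peaks and 9.65 per 100 of the last band. The gap to the thresholded peaks was not of 1 size or sign across bands of base composition, and no band was tested. Between 40 and 45% G and C, members held the consensus at 35.7% and thresholded peaks at 45.9%. Between 45 and 50% the shares were 27.9% and 38.7%, while between 35 and 40% they were 41.9% and 42.4%. Members were at 47.9% against 42.8% between 30 and 35%, and at 58.9% against 56.5% under 30%.

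**Figure D1:**
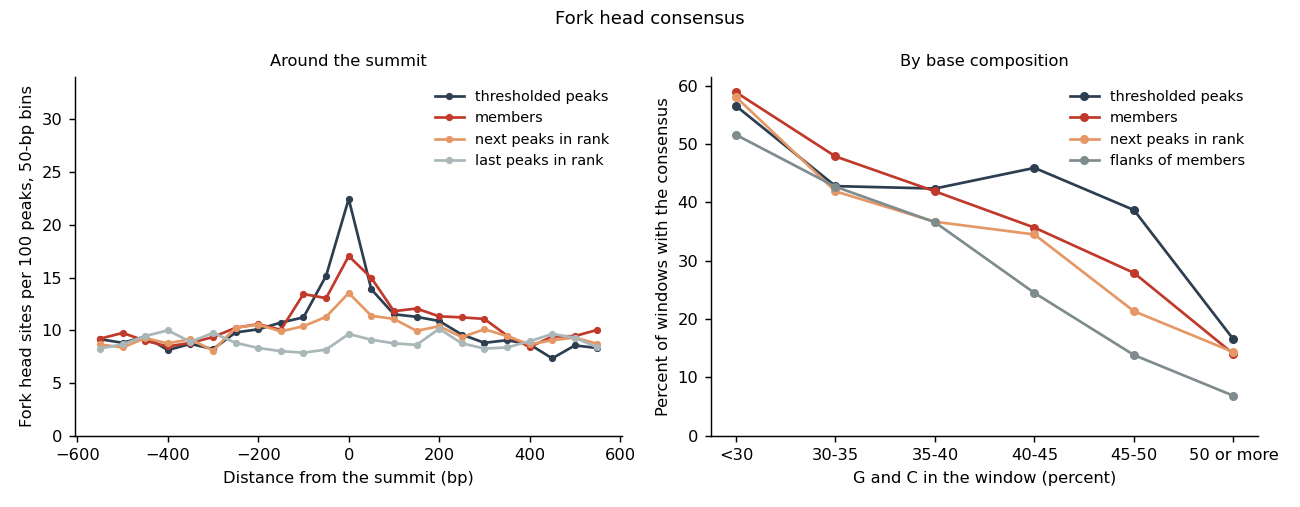
Left, fork head sites per 100 peaks in 50-bp bins against the distance from the summit (bp) for 4 bands of equal size; the members peak at 17.0 in the central bin, between the thresholded peaks at 22.5 and the next peaks at 13.5. Right, percent of windows with the consensus in 6 bands of G and C content for members, their flanks, thresholded peaks and the next peaks; members lie above their flanks in every band.

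Of the 21 motifs, 8 (38.1%) were more frequent at members than in flanks and 3 (14.3%) were less frequent. Besides the fork head consensus, the 8 were promoter and insulator motifs. M1BP's motif was in 2.76% of members and 0.246% of flanks, against 0.97% of all pooled windows. DREF's was in 2.81% and 0.542%, against 1.54%. ACACTG, a 6-mer of Drosophila promoters, was in 16.3% and 7.68%, against 10.9%.

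CTCF, BEAF-32, GAGA and TATA box matches made up the rest of those that were higher. CTCF, an insulator protein whose core was searched as AGAGGGCG or AGATGGCG or AGGGGGCG or AGGTGGCG, was matched in 4.23% of members, 1.72% of flanks and 3.003% of all pooled windows. CGATA, for BEAF-32, was in 28.5%, 20.7% and 23.6%. GAGAG, bound by the chromatin-opening GAGA factor, was in 26.5%, 22.2% and 23.7%. Its call against flanks was lost by the exact McNemar test in replicate 2's own list (adjusted p = 0.0679), with members of higher rank only (0.197), with windows of 50 bp (a difference of 0.295 points, 0.943) and against the flank on the other side (0.0577). TATAAA, the TATA box, was in 27.6%, 21.9% and 24.5%.

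These shares were also read at equal base composition. Among the 691 members and flanks of near-equal G and C, M1BP (2.60% against 0.145%), CTCF (4.49% against 1.16%) and ACACTG (16.6% against 8.83%) were still higher, with adjusted p of 0.000534, 0.00100 and 0.000171 by the exact McNemar test. The TATA box was at 24.5% against 23.2% there (adjusted p = 0.823, exact McNemar test) and BEAF-32 at 25.2% against 21.9% (adjusted p = 0.377). GAGA, at 27.4% against 21.7%, and DREF, at 1.88% against 0.579%, also missed the threshold of the exact test, with adjusted p of 0.0601 and 0.129. From all members to this subset the difference went from 4.28 to 5.64 points for GAGA and from 2.26 to 1.30 for DREF. It went from 7.78 to 3.33 for BEAF-32 and from 5.66 to 1.30 for the TATA box. Fewer windows enter this comparison, and the cause of the lost calls was not tested.

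The 3 motifs that were lower were those of TEAD, Snail and STAT. TEAD's GGAATG was in 6.55% of members, 9.80% of flanks and 8.90% of all pooled windows. CAGGTG, an E-box bound by Snail, was in 5.71%, 8.12% and 6.83%. TTCNNNGAA, for STAT, was in 4.23%, 6.30% and 5.33%. At near-equal G and C TEAD's motif passed again, at 6.22% against 10.1% (adjusted p = 0.0487, exact McNemar test). STAT's was at 3.91% against 6.66% (adjusted p = 0.0885) and Snail's at 6.80% against 7.53% (adjusted p = 0.838), which did not pass the exact test.

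The remaining 10 motifs did not pass in either direction, with adjusted p from 0.0713 to 1. GATAAG for GATA factors was in 10.7% of members and 8.81% of flanks, and TCAGTC or TCAGTT for the initiator in 19.8% and 17.3%. In all pooled windows these were at 9.80% and 18.6%. CAGGTA, the site of the genome activator Zelda, was in 4.92% of members, 5.17% of flanks and 4.80% of all pooled windows.

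For the other 7 the shares are given in members and then in all pooled windows. TAATTA for homeodomains stood at 13.5% and 12.8%, TAATCC for Bicoid at 5.81% and 6.13%, and CTTTGA for TCF at 11.0% and 11.5%. CATATG for Twist stood at 6.55% and 7.01%, GTGGGAA for Su(H) at 2.31% and 2.46%, AACAAT for SOX factors at 21.7% and 20.7%, and AACCGGTT for Grainyhead at 0.542% and 0.247%.

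Against the thresholded peaks, 0 of 21 motifs (0%) were more frequent and 0 (0%) were less frequent at members after adjustment. The fork head consensus, the TATA box (27.6% against 31.7%) and M1BP (2.76% against 1.53%) each had adjusted p = 0.0624 by Fisher's exact test. With windows of 250 bp M1BP was 1.97 points higher at members and passed (adjusted p = 0.0427, Fisher's exact test). Against the next peaks, the fork head consensus was the 1 motif (4.76%) that was more frequent, and 0 (0%) were less frequent.

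**Figure D2:**
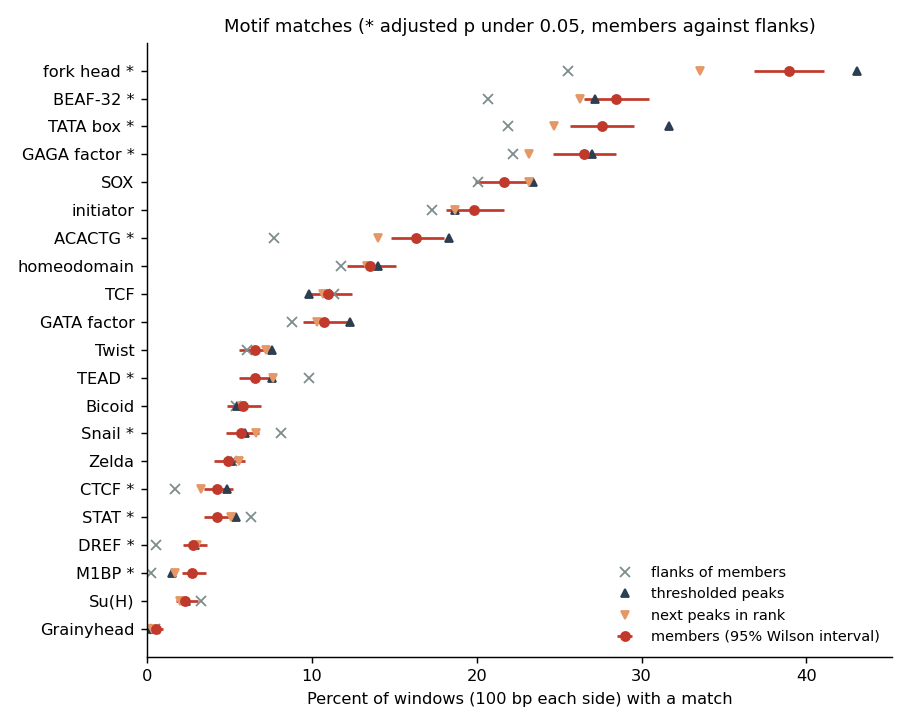
Percent of windows (100 bp each side of the summit) with a match to each of 21 motifs, in members with 95% Wilson intervals, in flanks of members, in thresholded peaks and in the next peaks; stars mark adjusted p under 0.05 for members against flanks. Fork head, ACACTG and BEAF-32 show the widest gaps between members and flanks.

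Of all 6-mers, each counted together with its reverse complement, 208 (10%) were more frequent at members than in flanks and 353 (17%) were less frequent. The 5 of smallest p in the exact McNemar test all belonged to the former. AAATAT was at 45.4% of members and 29.8% of flanks, AAATAA at 47.4% and 32.5%, and TAAATA, which lies inside 2 forms of the consensus, at 39.5% and 25.9%. ACACTG came next, the only one of the 5 that is not made of A and T alone. AAAATA was at 47.6% and 34.7%. The lowest p among the depleted 6-mers was that of CCAGGA, at 3.45% against 9.36%. Members' windows held less G and C than their flanks, and the 6-mer counts were not repeated at equal base composition.

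Members lay at transcription start sites more often than the peaks on either side of them in rank. A summit within 1 kb of a TSS was found for 1175 members and not for 856, a share of 57.9% (interval 55.7 to 60.0%). It was found for 53.3% of thresholded peaks (adjusted p = 0.0128, Fisher's exact test over 7 classes) and 49.4% of the next peaks (adjusted p = 6.09e-07). The first of these differences was not seen in the replicates taken singly. By the same exact test it was 2.12 points in the same ranks of replicate 2's own list (adjusted p = 0.339), and in replicate 1's it was -0.148 points (adjusted p = 0.95). It also missed the threshold among members shared by both replicates (3.63 points, adjusted p = 0.0897) and with protein-coding TSSs only (3.69 points, adjusted p = 0.0707), again by Fisher's exact test. The difference from the next peaks passed in each alternative of list, members and TSS window that was run.

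Within the promoter region the members sat closest to the start site. In 569 members (28.0%) the summit was within 100 bp of a TSS, against 21.3% of thresholded peaks and 19.7% of the next peaks. Both differences passed (adjusted p = 1.74e-06 and 1.73e-09) in a family of 6 Fisher's exact tests added after the values had been seen. The first was 1.72 points in replicate 2's own list (adjusted p = 0.419) and 2.02 points in replicate 1's (adjusted p = 0.199), by Fisher's exact test. The median distance of all members to a TSS was 533 bp, against 791 bp and 1045 bp.

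The members' summits were also spread more evenly over the start site than those of the thresholded peaks. Of the 1175 near summits, 56.9% were upstream of the nearest TSS, against 69.7% of 1082 in the thresholded peaks (adjusted p = 1.73e-09) and 54.7% of 1004 in the next peaks (adjusted p = 0.359, Fisher's exact test). The median position was 29 bp upstream (signed -29), against -79.5 and -19. In the first 100 bp downstream lay 13.3% of all members, 8.0% of thresholded peaks and 9.6% of the next peaks. The difference in the upstream share from the top peaks passed in both replicates' own lists, at -10.8 and -10.0 points.

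**Figure D3:**
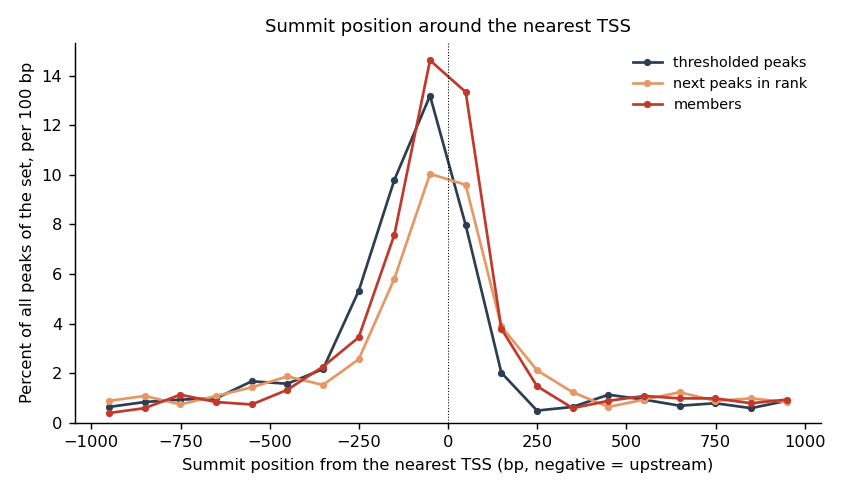
Percent of all peaks of a set per 100 bp against the summit's position from the nearest TSS (bp, negative upstream). Members are highest in the bins on both sides of the TSS, at 14.6% upstream and 13.3% downstream, while thresholded peaks fall off faster downstream.

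Transfer RNA genes supplied part of the near positions. The nearest TSS within 1 kb was that of a tRNA gene for 36 members, 17 thresholded peaks and 28 of the next peaks. The difference from the thresholded peaks passed Fisher's exact test (adjusted p = 0.0181) and that from the next peaks did not (adjusted p = 0.378). In the single replicates the difference from the top peaks was 0.197 points in each and did not pass (adjusted p of 0.761 and 0.804). Protein-coding genes gave the nearest TSS for 1028 of the 1175.

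Introns over 1 kb from a TSS held fewer members than peaks of either neighbouring set. They took 476 members (23.4%), 29.0% of thresholded peaks (adjusted p = 0.000447, Fisher's exact test) and 29.7% of the next peaks (adjusted p = 2.61e-05). Summits within 1 kb of a TSS were counted in the TSS class only. A higher TSS share therefore leaves less for the other classes, and the intron share is not a separate result. In replicate 2's own list the difference from the top peaks was -1.48 points and did not pass (adjusted p = 0.427, Fisher's exact test). Intergenic positions over 1 kb from a TSS took 330 members (16.2%). Coding exons over 1 kb from a TSS held 9 members (0.443%), 4 thresholded peaks (adjusted p = 0.621, Fisher's exact test) and 31 of the next peaks (adjusted p = 0.00149). In replicate 1's own list the difference from the top peaks was 1.18 points and passed (adjusted p = 0.000454, Fisher's exact test). Over 1 kb from a TSS, the 5' and 3' untranslated regions held 5 and 24 members.

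Members away from start sites carried the consensus more often than those near one. It was in 365 of 856 members over 1 kb from a TSS (42.6%) and in 426 of 1175 nearer ones (36.3%), with p = 0.00371 by Fisher's exact test. By the same exact test this call was lost in each replicate's own list (p of 0.713 and 0.889), with windows of 250 bp (p = 0.154) and with GTAAACA alone (p = 0.936). Some promoter and insulator motifs had the opposite arrangement: M1BP's was in 4.68% of near members and 0.117% of the others. DREF's was in 4.51% and 0.467%, and BEAF-32's in 33.96% and 20.91%. ACACTG, at 17.3% and 15.1%, and the TATA box, at 27.7% and 27.3%, differed less. GAGA, at 24.1% and 29.8%, and CTCF, at 4% and 4.56%, were higher in members away from start sites. For these motifs near members were not tested against the others.

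Most members had a summit in both replicates. A summit within 100 bp was present in both replicates for 1738 members (85.6%, interval 84.0 to 87.0%), in replicate 1 only for 173, in replicate 2 only for 110 and in neither for 10. The share was 95.6% in the thresholded peaks and 70.1% in the next peaks. Since the pooled signal draws on the same reads as the replicates, this order is partly set by the selection and was not tested. With 50 bp in place of 100 bp the share was 60.6%, and with 200 bp it was 96.6%.

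The ranks of members within each replicate covered a wide range. The median rank was 3368 in replicate 1 and 3568.5 in replicate 2, with best ranks of 595 and 720. The band of ranks above the members' own held 3 of them in both replicates, 254 in replicate 1 alone and 280 in replicate 2 alone; the selection on pooled signal largely fixes the first of these counts. Ranks beyond 10000 were held by 128 members in replicate 1 and 170 in replicate 2. The fork head consensus was in 38.8% of members found in both replicates and 39.6% of the other 293 (p = 0.846, Fisher's exact test). The TSS share was 56.9% and 63.5% (p = 0.035, Fisher's exact test).

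The shares were also read along the ranks. In 3 bins of equal size from high to low, the consensus was at 41.9%, 39.0% and 35.9%, against 37.2% in the last thresholded bin and 36.3% in the first bin below. TSS shares in the same bins were 59.8%, 58.1% and 55.7%, against 54.5% and 51.7%. Between the 508 highest and the 507 lowest members the consensus went from 43.5% to 37.7% (p = 0.0638) and the TSS share from 60.0% to 54.6% (p = 0.0868), and neither passed Fisher's exact test. In each replicate's own list and among members shared by both replicates the TSS share did pass, with differences of 7.01 to 9.94 points.

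**Figure D4:**
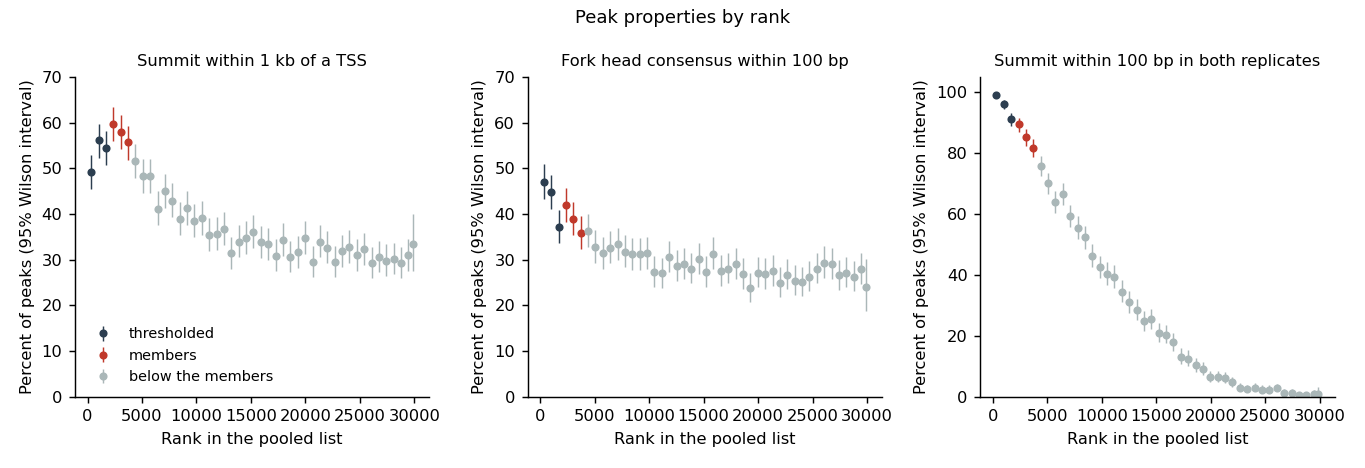
Percent of peaks, with 95% Wilson intervals, against rank in the pooled list in bins of equal size, for a summit within 1 kb of a TSS, a fork head consensus within 100 bp, and a summit within 100 bp in both replicates. The 3 member bins stand at 59.8%, 58.1% and 55.7% in the left panel, above every bin below them in rank.

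No difference in nearness to thresholded peaks was detected between the members and the next peaks. A thresholded summit lay within 2 kb of 295 members (14.5%) and 309 of the next peaks (15.2%), with p = 0.566 by Fisher's exact test. The median distance was 11361 bp and 11377 bp. In replicate 1's own list, measured to its top peaks, the order was the opposite, with members 3.30 points higher (p = 0.00428, Fisher's exact test). Another member lay within 2 kb of 292 members (14.4%).

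The 20 members of highest signal had patterning, growth and housekeeping genes as their nearest genes, at distances of up to 15238 bp. The fork head consensus was in 10 of the 20, against 38.9% of all members and 30.4% of all pooled peaks. The first lay between genes at 3R 16260871 to 16261230, with the TSS of bor 3044 bp away. The next in rank lay 13260 bp from drm, which encodes a zinc finger protein of gut patterning. Its ranks were 2861 in replicate 1 and 1794 in replicate 2.

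Some transcription factor genes among these 20 had very different ranks in the 2 replicates. The peak 35 bp from the TSS of esg, a Snail family zinc finger gene, ranked 720 in replicate 2 and 8216 in replicate 1. The intronic peak of EcR, the ecdysone receptor gene, ranked 924 in replicate 2 and 5754 in replicate 1. At Six4, a homeobox gene of mesoderm, a peak 75 bp from the TSS ranked 1149 in replicate 1 and had no summit within 100 bp in replicate 2.

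Among other transcription factor genes of the 20, oc and chinmo had close ranks, while those of ci were further apart. The peak 3594 bp from oc, the head gap gene also called orthodenticle, ranked 2959 in replicate 1 and 2665 in replicate 2. The one 7799 bp from chinmo, a BTB zinc finger gene, ranked 1956 and 2328. The intronic peak nearest to ci, which encodes the effector of Hedgehog signalling, ranked 1211 and 4018.

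The genes sta, Polr1B and D1, also of the 20, each had a summit within 1 kb of a TSS. At sta, which encodes a ribosomal protein of the small subunit, the summit was 8 bp from the TSS, with ranks of 4601 and 1542. At Polr1B, a subunit of RNA polymerase I, it was 252 bp away, with ranks of 3624 and 1554. At D1, an AT-hook protein of satellite DNA, it was 72 bp away, with ranks of 2042 and 2445. Npc2h, Dmtn, row, Pkn, CG2063 and CG13185 were the nearest genes of the others, with Srp14 above and the Toll family genes 18w and Toll-6.

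Ordered by the worse of their 2 replicate ranks, the members were led by the peak near Tom. After it came the peak 76 bp from wmd (ranks 1846 and 1967) and the peak 13 bp from Lac (1972 and 1908), which encodes the septate junction protein Lachesin. At kra, whose product regulates translation, the summit lay 1 bp from the TSS, with ranks of 2076 and 1613. The intron of Egfr, the EGF receptor gene, held another at ranks 1510 and 2208. The rest of the 10 were nearest to by, 18w, E(bx), dos and Oatp30B.

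At the lower edge the last 3 members lay near lawc, kay and sli. The peak in an intron of Trf2, 1496 bp from lawc, ranked 1657 in replicate 1 and had no summit within 100 bp in replicate 2. The one 2643 bp from kay, the Drosophila Fos gene, ranked 5267 and 3111. The one 157 bp from the TSS of sli, which encodes the axon guidance ligand Slit, ranked 2561 in replicate 1 and had none in replicate 2. So 2 of these 3 had a summit within 100 bp in replicate 1 only.

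Some loci gathered several members. Within the gene widened by 5 kb, EcR held 7 member summits, as did kirre, which encodes an immunoglobulin protein of myoblast fusion. pnt, an ETS factor gene of receptor tyrosine kinase signalling, and tara also held 7 each. The same spans held 2, 5, 5 and 4 thresholded summits. jing, a zinc finger gene, held 6 member and 9 thresholded summits, while HmgD, an HMG-box chromosomal protein gene, held 6 and 1. The spans differ in length, from 394 kb for kirre to 2.47 kb for CG10874, which held 5 member summits and 0 thresholded ones; it and COX7AL2 are neighbours and can share summits.

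Protein-coding genes with a member summit within 1 kb of a TSS numbered 1423 of 13945, or 10.2%. Of these, 154 also had a thresholded summit there, which is 10.8% of the members' genes and 12.2% of the thresholded peaks' genes. The other 1269 had a member summit only. In the gene widened by 5 kb the count was 3644 of 13945 (26.1%), of which 2392 had no thresholded summit. The lists below are read against 10.2% for promoters and 26.1% for widened genes, with no test of a list. Thresholded summits were in 23.9% of all widened genes. A longer gene has more room for a summit, and gene length was not adjusted for.

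Cytosolic ribosomal protein genes had the largest count and formed the longest list, though several shorter lists below had a higher share. A member lay within 1 kb of a TSS at 23 of 92 (25%), and a thresholded summit at 54 of 92 (58.7%). Both kinds were at 4 genes, so that 73 of 92 had at least one. Of all protein-coding genes with a member summit, 10.8% also had a thresholded one. At RpS15 the summit was 18 bp from the TSS, with ranks of 1968 and 3480, and at RpL35 it was 55 bp away, with ranks of 2792 and 2042. RpL38 ranked 2282 and 953, and RpL36A ranked 1160 in replicate 2 with no summit in replicate 1. RpL10 had a thresholded summit only, and RpL10Aa had neither.

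Genes for insulator and promoter factors had a member summit at 5 of 13 (38.5%). They were M1BP, pita, BEAF-32, su(Hw) and CTCF, all of which encode DNA-binding proteins. None of the 5 had a thresholded summit as well, a small count beside the 10.8% of all genes with a member summit. The M1BP peak was 131 bp from the TSS and ranked 6551 in replicate 1 and 1269 in replicate 2. At CTCF the peak ranked 5880 and 5347. Chro had a thresholded summit only, and Clamp had neither.

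Polycomb and trithorax group genes, which keep developmental genes off or on, had a member summit at 6 of 15 (40%) and a thresholded one also at 6. At ph-d, a Polycomb repressive complex subunit gene, the summit was 2 bp from the TSS, with ranks of 1679 and 2494. Pc, the founding gene of the group, ranked 3141 and 3131. ph-p ranked 2429 and 19502, and osa, a chromatin remodelling subunit gene, 2356 and 5726. E(z) and Psc had a thresholded summit only.

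Cell cycle genes had a member summit at 4 of 11 (36.4%). Cdk1, the mitotic kinase gene, ranked 3212 and 3461, and CycB3 ranked 2952 and 3619. CycE, the cyclin of S phase entry, ranked 3911 and 4876 and also had a thresholded summit. E2f1, which drives S phase genes, ranked 1874 and 5742. CycB had a thresholded summit only, and CycA neither.

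Notch pathway and Enhancer of split genes had a member summit at 6 of 18 (33.3%) and a thresholded one at 9. Delta, the ligand gene, had a summit 33 bp from its TSS, with ranks of 2840 and 1316. neur and mam, the latter a co-activator gene of the pathway, ranked 1751 and 1697 in replicate 2 and had no summit within 100 bp in replicate 1. Of the target genes, E(spl)mgamma-HLH ranked 3776 and 2027. E(spl)m2-BFM and E(spl)m4-BFM had a thresholded summit only.

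Genes of the EGF and FGF receptor pathways had a member summit at 5 of 17 (29.4%) within 1 kb of a TSS. Within the widened gene the count was 14 of 17 (82.4%), and 12 of 17 (70.6%) held a thresholded summit there. Of the ligand genes, spi ranked 3187 and 3624. htl, an FGF receptor gene, ranked 6804 and 1830. stumps, the adaptor gene of FGF receptors, ranked 2625 and 5312, and the effector pnt 3305 and 1574. Egfr had neither kind of summit within 1 kb of a TSS, and Raf had a thresholded one.

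Among patterning genes the counts were small. Hox genes and cofactors had 3 of 10 (30%): Abd-B, with its summit 6 bp from a TSS and ranks of 2152 and 2415, hth and abd-A. Gap and head gap genes had 3 of 11 (27.3%): cnc, ems and btd. Segment polarity genes had 3 of 12 (25%): pan, the TCF gene of Wnt signalling, nkd and hh. Pair-rule genes had 1 of 9 (11.1%), run, while 5 of 9 had a thresholded summit. Antp, Dfd, Kr, gt, arm, ci and eve had neither, and ftz had a thresholded one. In the widened gene Hox genes had 6 of 10 (60%), gap genes 6 of 11 (54.5%), segment polarity genes 6 of 12 (50%) and pair-rule genes 4 of 9 (44.4%). For thresholded summits these counts were 8, 4, 6 and 6.

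Lists of tissue genes also had small counts. Tracheal genes had 3 of 12 (25%): esg, rib and salm, with bnl at a thresholded summit only and btl at neither. Mesoderm genes had 3 of 14 (21.4%): stumps, htl and sna, with Mef2 and ap at neither. Neuroectoderm and neuroblast genes had 2 of 14 (14.3%): mira, 1 bp from its TSS, and SoxN. Adherens junction and polarity genes had 2 of 10 (20%): cno and baz.

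Fork head domain genes had a member summit at 4 of 17 (23.5%) and a thresholded one also at 4. They were CHES-1-like, croc, jumu and FoxK. CHES-1-like and FoxK also had a thresholded summit, and FoxL1 and FoxP had neither. Dorsal ectoderm and BMP genes had 1 of 15 (6.67%), pnr, and maternal and early zygotic genes 1 of 12 (8.33%), zld. In the widened gene these were 9 of 15 (60%) and 6 of 12 (50%), and for fork head domain genes 9 of 17 (52.9%). For thresholded summits these counts were 7, 7 and 10.

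Endoderm and gut genes had 0 of 8 with a member summit within 1 kb of a TSS, while bowl, a zinc finger gene of gut patterning, had a thresholded one and GATAe, an endodermal GATA factor gene, had neither. In the widened gene 5 of 8 (62.5%) held a member summit, and 5 of 8 a thresholded one. Genes of late or adult tissues had few or no members near a TSS: neuronal genes 0 of 10, chorion genes 0 of 9, and serum, yolk and glue protein genes 0 of 13. Odorant receptor genes had 1 of 59 (1.69%), Or88a, which ranked 3433 and 9152. In the widened gene the counts were 0 of 10, 0 of 9, 2 of 13 (15.4%) and 4 of 59 (6.78%), against the 26.1% of all genes.

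Several promoter counts of lists depended on which replicate was read. In the same ranks of replicate 2's own list the ribosomal count was 13, that of Notch genes 2, of insulator genes 2, of Hox genes 1 and of mesoderm genes 0. Segment polarity genes had 5 there, pair-rule genes 2, dorsal ectoderm genes 4 and maternal genes 2. In replicate 1's own list insulator genes had 3, EGF and FGF genes 3, adherens junction genes 5, dorsal ectoderm genes 3, maternal genes 4 and gut genes 1. Each of these is over 1.5 times away from the count in the pooled list.

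**Figure D5:**
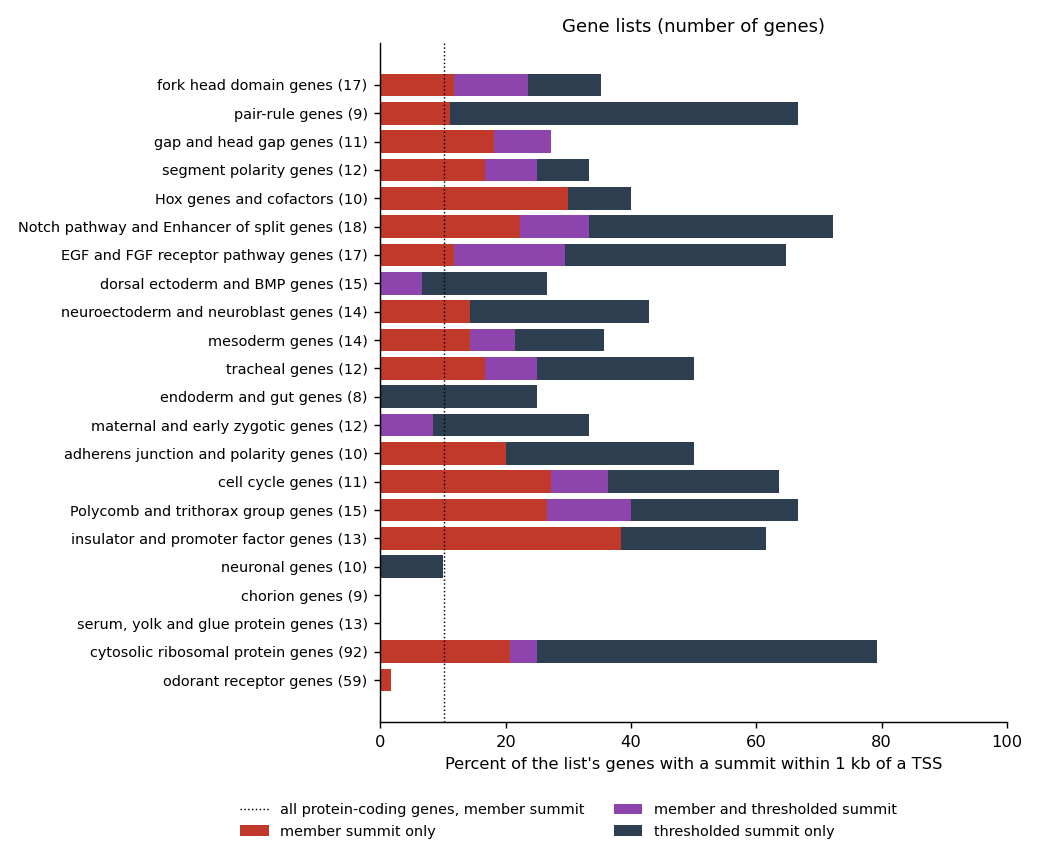
Percent of the genes of 22 lists (number of genes in brackets) with a summit within 1 kb of a TSS, divided into member only, member and thresholded, and thresholded only; the dotted line is the 10.2% of all protein-coding genes with a member summit. Ribosomal protein genes have 25% with a member and 58.7% with a thresholded summit. The insulator list has 5 of 13 genes with a member summit and none of these with both, against 10.8% of all genes with a member summit.

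By chromosome arm, only chromosome 4 differed from the thresholded peaks. It held 39 members, or 28.9 per Mb, against 15 thresholded peaks, or 11.1 per Mb, and 37 of the next peaks (adjusted p = 0.00836 against the thresholded peaks, Fisher's exact test over 6 arms). The other 5 arms each had adjusted p = 0.968 by the same exact test. The call was lost in each replicate's own list and with members of higher rank only. Chromosome 4 is small, mostly heterochromatic and carries fd102C itself.

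On that chromosome 22 of the 39 members were within 1 kb of a TSS, 13 held the fork head consensus and 31 had a summit in both replicates. Over all members these shares were 57.9%, 38.9% and 85.6%. Of its 80 protein-coding genes, 17 had a member summit within 1 kb of a TSS and 9 a thresholded one. Over all protein-coding genes the shares were 10.2% and 9.08%. The members of highest signal were nearest to ci, to pan with ranks of 2169 and 2751, and to zfh2, a homeodomain zinc finger gene, with ranks of 2250 and 2767.

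fd102C had no member within 1 kb of its own protein-coding TSS. Its gene spans 4 836986 to 844529 on the minus strand. The member at 4 850378 to 850737 (rank 2347) lay 6029 bp upstream of the gene and ranked 2520 in replicate 1 and 2486 in replicate 2. The member at 4 836450 to 836809 (rank 3323) lay 356 bp beyond the other end and ranked 2635 in replicate 1, with no summit within 100 bp in replicate 2. A thresholded peak, rank 1396, lay 2727 bp beyond that end.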

How the data were processed

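Members were ranks 2032 to 4062 of the pooled list (2031 peaks), compared with ranks 1 to 2031 and 4063 to 6093. Peak calls were made by the authors from single and pooled replicates with a control as reference, according to the deposited notes. Each deposited peak carries a signal (a score of unstated scale), a −log10 q-value, used here only for ties, and a summit. Aligner, caller and threshold: not given in the sources used here. Both samples are called input control in 1 label field, but their title, assay and antibody name transcription factor ChIP-seq, so they were treated as ChIP. The age field gives impossible hours.

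Assembly was dm6 per the labels. Annotation was Ensembl release 115 (18164 genes, 23581 TSS positions on 6 arms), and sequence was RefSeq's Release 6 genome. A motif match meant the consensus on either strand within 100 bp of the summit. Shares were compared by two-sided Fisher's exact tests between peak sets and exact McNemar tests against flanks, with Benjamini-Hochberg adjustment within each family (Python 3.11.15, SciPy 1.17.1), and were tested on simulated data. Families were 7 classes, 21 motifs, 4 consensus forms, 2080 6-mers and 6 arms. Biological replicates are named only by the labels. Peaks are not replicates, neighbouring genes can share a summit, and intervals cover counting error over peaks only.

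The members, lists (22, with 401 entries and 386 genes, 2 matched through older symbols), motifs and tests were chosen with earlier results of these data known. Genes named were the nearest protein-coding genes of the 20 highest and last 3 members, of the 10 members with the best worse rank over both replicates, the 10 genes with the most member summits, fd102C, and in each list up to 4 bound genes of highest signal and up to 2 unbound in alphabetical order, with CTCF as an addition. Comparisons at near-equal base composition, by position, without chromosome 4, within 100 bp of a TSS, upstream and at tRNA genes were added after the values had been seen.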

Additional observations from a re-analysis of the deposited data

How the results depend on the processing

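No paired analysis was possible because the samples form 1 group. Differences are in percentage points, members minus the set compared. The fork head consensus against flanks kept its direction and its call under the alternatives chosen with the tests, and so did the TSS share against the next peaks. Among members with at least as much G and C as their flank the fork head difference from flanks turned to -8.19.

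With either replicate's own list alone, values ranged as follows, with that list's top peaks in place of the thresholded peaks. The TSS share against the thresholded peaks ran from -0.148 to 2.12, and the share within 100 bp of a TSS from 1.72 to 2.02. The fork head difference was 4.14 in both lists against the next peaks, with the call lost in replicate 1's, and ran from -9.16 to -2.56 against the thresholded peaks. Between members near a TSS and the others it ran from -0.889 to -0.381. From the highest to the lowest members by rank it ran from -2.64 to 2.69, and the TSS share from 9.35 to 9.94. The difference in coding exons ran from 0.542 to 1.18, past the threshold in replicate 1's list, the share near a thresholded summit from -0.148 to 3.30, and the share of summits in both replicates from 65.7% to 66.7%. No arm was called (0) in either list.

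With members of higher rank only, 0 arms were called, 134 6-mers were higher than in flanks and 89.0% of summits were in both replicates. Among members shared by both replicates the TSS difference from the thresholded peaks was 3.63 and that along the ranks 7.01. With protein-coding TSSs only it was 3.69, and with a 500 bp TSS window the coding exon difference was 0.591 and passed. Windows of 50 bp gave a fork head difference of -4.87 from the thresholded peaks and 3.496 from the next, and 102 6-mers. Windows of 250 bp gave 0 against the thresholded peaks and -3.05 between members near a TSS and the others. GTAAACA alone gave -0.134 there, 0.886 against the next peaks and -0.608 along the ranks. Among peaks near a TSS the fork head difference from the next peaks was 1.89. The share of summits in both replicates was 60.6% within 50 bp and 96.6% within 200 bp. The cause of these changes was not tested, and depth is unknown.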
